A study of Drosophila melanogaster with 12 samples.

Results

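The transcriptome described here is that of the fat body of wandering Drosophila melanogaster larvae of the control genotype on the control diet. It comprises the 3 libraries that carry those labels, out of 12 in the series, and 9367 genes in each. The larvae were female offspring of males of the control stock VDRC 60100 and females of a driver stock with UAS-Dcr2 on the X chromosome and r4-GAL4, a driver active in the fat body. They therefore carried a Dicer-2 transgene and no hairpin, and they fed on a modified semi-defined food with 0.15 M sucrose. They were collected at the wandering stage, when larvae leave the food before pupariation. The other 9 libraries of the series, with RNAi against seven-up or with a high-sugar diet, are not used, and no condition is compared with another. It is not stated in the labels whether these 3 libraries came from separate pools of animals or how many animals each holds, so the spread between them may be technical.

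The fat body of insects stores fat, glycogen and protein and secretes most proteins of the hemolymph, the role that liver and adipose tissue share in mammals. Towards the end of larval life it produces larval serum proteins in bulk, releases them into the blood and later takes them up again as protein granules, a store of amino acids for metamorphosis. This switch follows the steroid hormone ecdysone. The tissue is also the main site of the humoral immune response, of trehalose and lipoprotein synthesis and of nutrient sensing.

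Values are the authors' deposited normalized abundance. It is a read-like signal per gene, scaled between libraries by the authors and not divided by gene length, so a long transcript takes a larger share of it than a short one present in as many molecules. A share below is a gene's or list's part of the summed signal of all 9367 genes in a library, and ± is the SD over the 3 libraries (n = 3). The libraries held 6163748, 5369200 and 4380435 recovered reads in replicates 1, 2 and 3. No value was at 0, and the lowest gene had a mean of 1.15. A gene without reads in any 1 library of the table is therefore not described. The median gene had a mean of 76.1, and 551 genes (5.88%) had a mean of at least 1000, against 978 genes (10.4%) with a mean under 10.

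The signal was concentrated in a few genes. In replicates 1, 2 and 3, 26, 21 and 13 genes held 50% of the signal, and 1966, 1768 and 1651 genes held 90%. The 10 highest genes of each library held 41.6%, 42.9% and 47.4%. By abundance class, the 43 genes with a mean of 10000 or more held 55.9% ± 2.83 of the signal, and the 508 genes from 1000 to under 10000 held 23.2% ± 1.22. At the other end, the less abundant 50% of genes held 2.25% ± 0.19. Replicate 3 was the most concentrated library. That difference lay outside the protein-coding genes: over the 9045 nuclear protein-coding genes alone, the 10 highest genes held 42.9%, 43.2% and 42.5%, and 34, 30 and 35 genes held 50%.

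**Figure D1:**
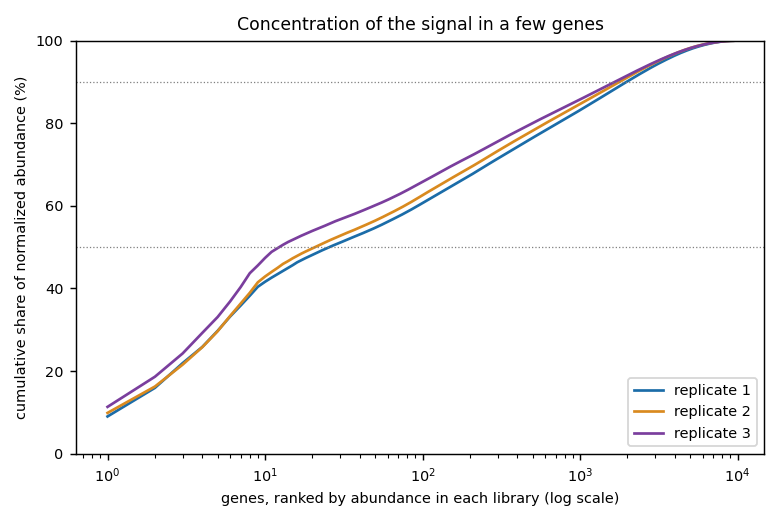
Cumulative share of normalized abundance (%) against the number of genes, ranked by abundance within each library (log scale), with 1 line per library and dotted lines at 50% and 90%. Replicate 3 reaches 50% with 13 genes, replicate 2 with 21 and replicate 1 with 26.

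The storage list, made of the larval serum protein genes with Fbp1 and Fbp2, took 6 of the first 10 places by mean abundance. The other 4 were CR41583 (rank 3), Obp99b (rank 5), the mitochondrial ribosomal RNA mt:lrRNA (rank 8) and CR40677 (rank 10), which are described further on, and in replicate 3 CR41583 stood above Lsp2. Lsp2 (FBgn0002565, arm 3L), which forms the hexamers of larval serum protein 2, had 489720, 589850 and 473980 in replicates 1, 2 and 3, a mean share of 8.72% ± 1.3 that placed it at rank 1. Fbp1 (FBgn0000639, arm 3L), the fat body receptor through which serum proteins return to the tissue, had 377360, 382600 and 366420, with a coefficient of variation (CV, the SD as a percentage of the mean) of 2.20%. The 3 subunits of larval serum protein 1 followed. Lsp1beta (arm 2L) had 326460, 317770 and 323660, a CV of 1.37%. Lsp1gamma (arm 3L) had 213730, 220830 and 225910, and Lsp1alpha (arm X) had 188400, 180120 and 218020. The subunit genes lie on different chromosomes and differ little in coding length (2367, 2316 and 2448 bases for beta, gamma and alpha), and the order beta, gamma, alpha held in each of the 3 libraries. Lsp1alpha stood at 0.577, 0.567 and 0.674 of Lsp1beta. Fbp2 (arm 2L), a protein related to alcohol dehydrogenase, had 118210, 155920 and 117710 and was highest in replicate 2, as was Lsp2.

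Together the 6 storage genes held 31.5%, 30.9% and 26.6% of the signal in replicates 1, 2 and 3. Of the nuclear protein-coding signal alone they held 35.3%, 35.5% and 34.5%, so replicate 3 was again lowest, by a smaller gap. Adding Obp99b, 7 genes held 39.7% ± 0.28 of the nuclear protein-coding signal. Of the 6, the receptor Fbp1 and the alcohol dehydrogenase relative Fbp2 held 6.32% and 2.20% of the whole signal on average.

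Obp99b (FBgn0039685, arm 3R) belongs to the odorant-binding proteins, small secreted proteins that carry hydrophobic ligands and occur in hemolymph as well as in sense organs. It had 211720, 229890 and 244740 in replicates 1, 2 and 3 and was at rank 5, with a share of 3.83% ± 0.06. Of the 12 family members measured, Obp99c followed at 8767 ± 963 and Obp44a at 701 ± 140, and the family median was 272. The family's share of 4.02% ± 0.06 was thus nearly all that of Obp99b.

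Other genes among the 30 highest were of several kinds. Ef1alpha48D, the elongation factor that brings aminoacyl-tRNA to the ribosome, had 65792, 66703 and 58747 in replicates 1, 2 and 3. CG34166, a gene of 246 coding bases on arm 2L with no role given here, had 54231, 58293 and 52261. Rfabg, now named apolpp, encodes the precursor of the apolipoproteins of lipophorin, the main lipid carrier of the hemolymph, and had 38901, 41263 and 44182. The remainder of the 30 took in mitochondrial transcripts, ribosomal RNA, translation and ribosomal protein genes, Dcr-2, Pepck, the clotting protein gene fon, Act5C, Arc1 (a capsid-forming protein known from neurons), the nuclear RNA 7SK, and the CG-numbered genes CG31075, CG43085, CG2233 and CG2444. CG31075 had 32994 ± 4233, CG43085 had 21252 ± 2715, CG2233 had 21242 ± 1229 and CG2444 had 15892 ± 1163, and the CVs of these 4 were at most 12.8%. Of the 100 highest genes, 38 encoded cytosolic ribosomal proteins, and 17 were in none of the function lists. The sets of the 10, 30 and 100 highest genes shared 9, 28 and 93 genes among all 3 libraries.

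**Figure D2:**
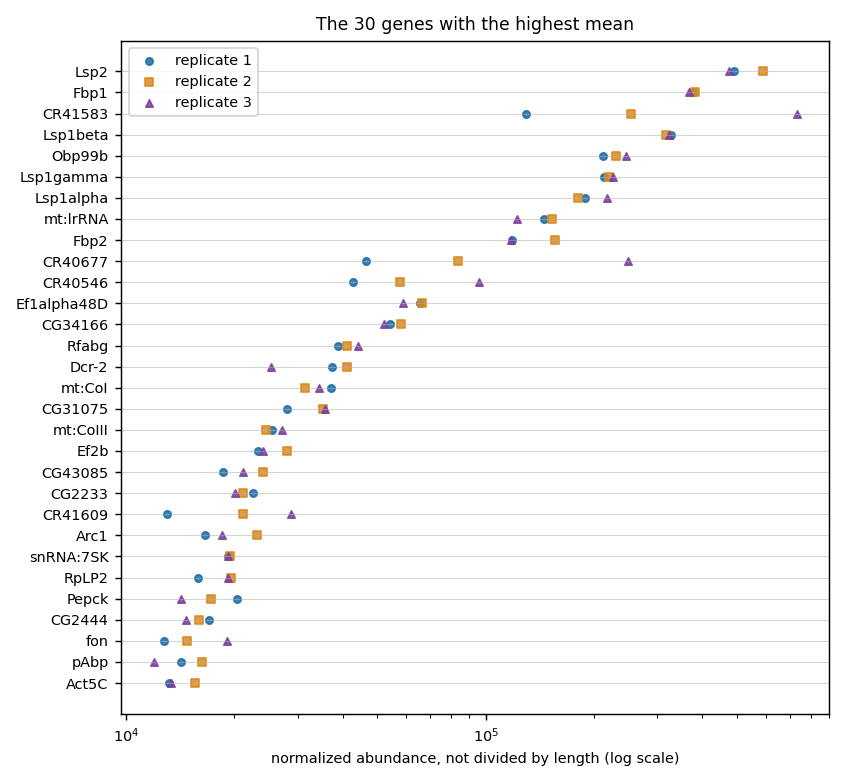
Normalized abundance, not divided by length (log scale), of the 30 genes with the highest mean, with 1 symbol per library. The storage genes, Obp99b and Ef1alpha48D have symbols close together, whereas CR41583, CR40677, CR40546 and CR41609 are spread out with replicate 1 lowest and replicate 3 highest.

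Dividing each value by the gene's coding length, a rough guide to relative molecule numbers for the 9045 genes with a coding length, changed the order. Obp99b was then first, with 473647, 514295 and 547517 per coding kilobase in replicates 1, 2 and 3, above Lsp2 with 232867, 280480 and 225383. The lowest of the Obp99b values was above the highest of the Lsp2 values. CG34166 and Fbp2 came next on this scale, with 223286 and 170069 per coding kilobase, followed by RpL41, a ribosomal protein of 75 coding bases, with 162391. All 6 storage genes stayed within the first 9 places. Apolpp, which has 10053 coding bases, moved to place 157 per coding kilobase from rank 14. The lists 10, 30 and 100 genes long shared 8, 18 and 71 genes with the ranking not divided by length.

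By function, 41 lists covered 944 genes and 69.0% ± 2.73 of the signal. The 8423 genes in no list held 31.0% ± 2.73, of which 4532 genes known by a CG number held 14.3% ± 1.15. The storage list, which includes Fbp1 and Fbp2, led with 29.6% ± 2.66. Cytosolic ribosomal proteins followed with 7.86% ± 0.22, a group of CR-numbered names with 7.17% ± 5.13 and odorant-binding proteins with 4.02% ± 0.06. Mitochondrially encoded genes held 3.87% ± 0.57, nuclear ribosomal RNA 2.56% ± 1.83, translation factors 2.35% ± 0.32 and small and other noncoding RNA 1.18% ± 0.16. Every other list held under 1%. Divided by coding length, ribosomal proteins came first with 22.9% ± 0.96 of the length-adjusted signal. The storage list was next with 17.0% ± 0.74, then odorant-binding proteins with 10.7% ± 0.51.

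**Figure D3:**
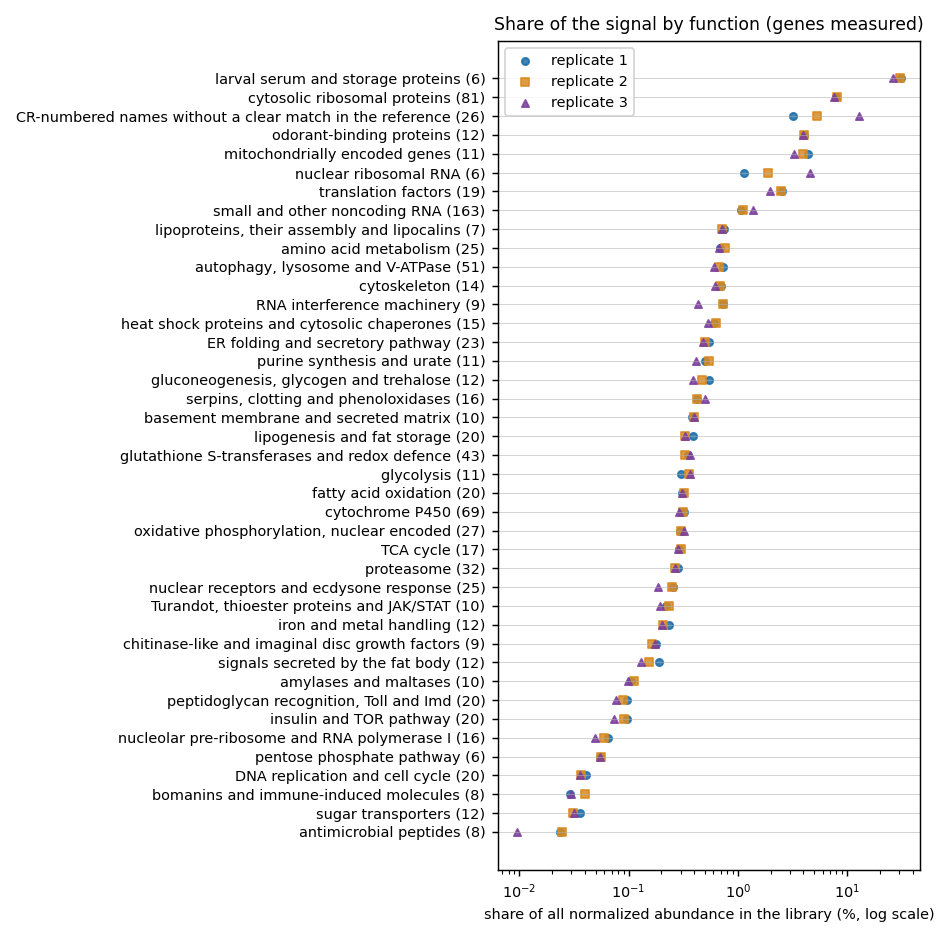
Share of all normalized abundance (%, log scale) held by each function list in each library, with the number of genes measured in parentheses and 1 symbol per library. The storage list holds 26.6% to 31.5%. The nuclear ribosomal RNA and CR-numbered lists are highest in replicate 3, and antimicrobial peptides are at the bottom with 0.00956% to 0.0247%.

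Protein synthesis was the largest function after storage. All but 4 of the 81 cytosolic ribosomal protein genes measured had a mean of at least 1000, and their median was 5227, against 76.1 for all genes. RpLP2, an acidic stalk protein of the large subunit, had 15836, 19560 and 19169 in replicates 1, 2 and 3, RpL41 had 12179 ± 986, and sta, a protein of the small subunit, had 12076 ± 315. The 4 genes under 1000 are named after their values were seen: RpS14b with 994 ± 73.8, RpL34a with 329 ± 66.3, RpS15Ab with 63.5 ± 6.62 and RpS5b with 10.9 ± 5.42. Each is the less abundant copy of a pair of paralogs, and near-identical copies can share reads, so the division between copies is uncertain. Of 19 translation factors, 10 were at 1000 or more, led by Ef1alpha48D, the translocation factor Ef2b with 25045 ± 2531 and the poly(A)-binding protein gene pAbp with 14146 ± 2167. Genes for making ribosomes were far lower. The 16 nucleolar and RNA polymerase I genes had a median of 98.6, with the nucleolar GTPase gene CG8801 (Non1) highest at 1775 ± 234, Nlp at 333 ± 34.5 and the pseudouridine synthase gene Nop60B at 248 ± 35.6.

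Secretion and matrix genes were well represented. All 23 genes of the secretory pathway measured had a mean of at least 246, with a median of 699. The disulfide isomerase gene Pdi had 6270, 6723 and 7311 in replicates 1, 2 and 3, the ER chaperone Hsc70-3 had 4096 ± 235 and the translocon subunit Sec61alpha had 2524 ± 150. TRAM, which helps nascent chains into the translocon, was among the 10 least variable genes with 1696, 1681 and 1677. Of 10 basement membrane genes, 6 were at 1000 or more: trol, the perlecan core protein, had 6761 ± 946, Cg25C (Col4a1), a collagen IV chain, had 4358 ± 594, and LanA, a laminin chain, had 3158 ± 234. Cg25C stood at 1.74, 1.79 and 1.82 of vkg, the partner collagen IV chain, in replicates 1, 2 and 3. Imaginal disc growth factors, secreted chitinase-like proteins, were led by CG5210 (Idgf6) with 4769 ± 357, Idgf4 with 2323 ± 586 and Idgf3 with 1578 ± 55.1. Among carriers of lipid other than apolpp, the assembly factor Mtp had 727 ± 62.2 and CG15828 (Apoltp), the precursor of the lipid transfer particle, had 550 ± 46.0.

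Fuel metabolism was spread over many genes of intermediate abundance. Lipogenesis and fat storage held 0.350% ± 0.036 of the signal over 20 genes with a median of 483. The fatty acid synthase gene CG3523 (FASN1) had 6538, 5750 and 6931 in replicates 1, 2 and 3, the perilipin gene Lsd-1 had 2812 ± 189 and ACC, which commits acetyl-CoA to fatty acid synthesis, had 1793 ± 214. Fatty acid oxidation held 0.312% ± 0.010 over 20 genes with a median of 753, led by CG12262 (Mcad) with 3122 ± 422, scu with 2480 ± 131 and the thiolase gene yip2 with 2042 ± 288. Over the lists, the median CV was 10.1% for lipogenesis and 11.2% for oxidation, close to the 10.6% of all genes from 100 to under 1000.

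In carbohydrate metabolism the highest gene was Pepck, for the enzyme of gluconeogenesis and glyceroneogenesis, with 20308, 17258 and 14250 in replicates 1, 2 and 3. Its symbol is ambiguous in the reference, so it has no coding length here. Tps1, which makes trehalose, the blood sugar of insects, had 2391 ± 79.0, and the glycogen phosphorylase gene GlyP had 2115 ± 363. In glycolysis Gapdh1 had 5656, 7562 and 7137, Eno had 3619 ± 908 and Gapdh2 had 2632 ± 529. Over all genes, 32.4%, 30.1% and 37.5% were highest in replicates 1, 2 and 3, the shares against which such counts stand. From 1000 to under 10000 these were 18.5%, 44.9% and 36.6%. Of the 11 glycolysis genes, 9 were highest in replicate 3 and none in replicate 1, and the median CV was 21.0%. The pentose phosphate pathway held 0.0550% ± 0.0006 over 6 genes, with Tal at 1624 ± 120, Pgd at 787 ± 78.3 and CG30410 (Rpi) at 392 ± 64.5. Tricarboxylic acid cycle genes had a median of 577, with Mdh1 at 4877 ± 431, Scsalpha at 2289 ± 50.5 and Idh at 1991 ± 238.

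Oxidative phosphorylation was read from both genomes. The 11 mitochondrially encoded genes measured held 4.39%, 3.96% and 3.26% of the signal in replicates 1, 2 and 3. Most of this was ribosomal RNA, with 2.67%, 2.55% and 1.89%, while the 9 protein-coding genes held 1.72%, 1.41% and 1.37%. The large ribosomal RNA mt:lrRNA had 145100, 152560 and 122320, and the cytochrome oxidase subunits mt:CoI and mt:CoIII had 34313 ± 2899 and 25723 ± 1376. The small ribosomal RNA mt:srRNA, a name added after seeing its value, had 202, 310 and 287. Of 27 nuclear-encoded subunits and carriers, which held 0.307% ± 0.012, 23 were highest in replicate 3. The ATP synthase subunits blw (alpha) and ATPsyn-beta had 2558 ± 250 and 2552 ± 335, a ratio of beta to alpha of 0.961, 0.996 and 1.03, and the adenine nucleotide carrier sesB had 2307 ± 73.4.

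Genes of amino acid metabolism held 0.694%, 0.759% and 0.670% of the signal in replicates 1, 2 and 3. This was more in each library than any of the lists of fat synthesis, fat oxidation, glycolysis, gluconeogenesis, pentose phosphate pathway and tricarboxylic acid cycle, whereas the lipoprotein list, with 0.729% ± 0.019, was above it in replicates 1 and 3. There were 25 such genes measured, against 6 to 20 in the lists it is set beside, and 13 of them were at 1000 or more. The list includes the folate enzyme gene pug, which alone held 0.158% in replicate 1. The gluconeogenesis list held 0.551% there, so its place below the amino acid list depends on where pug is counted. The folate enzyme gene pug had 8591, 9762 and 8243 in replicates 1, 2 and 3, the glutamine synthetase gene Gs1 had 5110 ± 270 and the ornithine aminotransferase gene Oat had 4612 ± 848. Purine synthesis and urate genes held 0.486% ± 0.067 over 11 genes. The multifunctional enzyme gene ade3 (Gart) had 11676, 14615 and 11487, ade5 (Paics) had 6648 ± 703 and Prat2, for the first step of the pathway, had 3009 ± 334, and all 3 were highest in replicate 2.

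Sugar-cleaving enzymes and sugar transporters were mostly low. The 10 amylase and maltase genes had a median of 40.4, although Mal-A5 had 4387 ± 431, Mal-A6 had 1149 ± 165 and Mal-B2 had 515 ± 21.3. The 12 sugar transporter genes had a median of 37.5 and held 0.0326% ± 0.0026, with sut1 at 707 ± 78.7, CG10960 (nebu) at 659 ± 91.1 and CG15406 at 190 ± 17.7.

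Metal and xenobiotic handling included very even genes. The metallothionein gene MtnA had 2620, 2593 and 2669 in replicates 1, 2 and 3, the iron carrier Tsf1 had 2604 ± 164, and the ferritin heavy chain gene Fer1HCH had 2165, 2134 and 2125, a CV of 0.973%. Of 69 cytochrome P450 genes measured, 4 were at 1000 or more and 12 were under 10. Cyp6g1, known for insecticide resistance, had 3563 ± 279, Cyp4d1 had 2254 ± 529 and Cyp309a1 had 2066 ± 133. In redox defence Cat, for catalase, had 3810 ± 432, PHGPx (Gtpx) had 2581 ± 83.6, and GstD1 had 1819, 1933 and 3460, with replicate 3 apart from the others.

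The lists of chaperones, cytoskeleton, proteasome and lysosome genes had median CVs from 7.52% to 15.4%. Hsc70-4, the main constitutive cytosolic chaperone, had 11953 ± 362, the small heat shock gene Hsp23 had 9638, 12757 and 8903 in replicates 1, 2 and 3, and Hsp83, the fly Hsp90, had 6477 ± 1024. Act5C had 13999 ± 1328, and the tubulin genes alphaTub84B and betaTub56D had 7387 ± 460 and 4821 ± 737. The 32 proteasome genes, with the lowest of these medians, were led by Rpn2 at 1108 ± 82.9, Prosbeta5 at 818 ± 61.7 and Rpn1 at 804 ± 63.6. Autophagy, lysosome and V-ATPase genes held 0.672% ± 0.063 over 51 genes. The lysosomal protease gene cathD had 8759 ± 520, the proton pump subunit Vha16-1 had 5597 ± 378 and the mannosidase gene CG6206 (LManII) had 2897 ± 148. Cell cycle and replication genes held 0.0376% ± 0.0026 over 20 genes, the highest being E2f with 538 ± 46.1, CycA with 173 ± 13.7 and CycB with 162 ± 4.05.

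Hormone response and signalling genes were of moderate abundance. Of 25 nuclear receptor and ecdysone response genes, 5 were at 1000 or more. The ecdysone-induced transcription factor gene br had 4914, 5536 and 3953 in replicates 1, 2 and 3, Eip75B had 1346 ± 164 and Eip74EF had 1103 ± 117. The nuclear receptor gene svp, the RNAi target in other libraries of the series, had 516, 477 and 373. Only 2 of the 25 genes were highest in replicate 3. The 20 insulin and TOR pathway genes all lay between 59.4 and 617, led by Pdk1 with 617 ± 119, foxo with 501 ± 76.4 and Tor with 487 ± 19.6. Among signals secreted by the fat body, Nplp2 had 4913, 3579 and 3601, the growth-blocking peptide gene CG11395 (Gbp2) had 1564 ± 98.6, and the insulin-like peptide gene Ilp6 had 1086, 1224 and 607.

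Immune genes included lists whose median gene was even between libraries and lists whose median gene was not. Clotting and melanization genes were led by fon, a clotting factor, with 12776, 14728 and 19145 in replicates 1, 2 and 3, the matrix protein gene Tig with 4728 ± 520 and the prophenoloxidase gene CG8193 (PPO2) with 2046 ± 456. TotA, a secreted stress peptide, had 5884, 6625 and 6344, TepII had 3478 ± 232 and Stat92E, the transcription factor of the JAK/STAT pathway, had 1653 ± 242. Among recognition and signalling genes, GNBP3, a receptor for fungal glucans, had 973 ± 66.9 and PGRP-SC2 had 814 ± 141. Rel, the transcription factor of the Imd pathway, had 591 ± 48.1. The median CV of this list was 11.5%, near the 12.8% of the clotting and melanization list and the 12.7% of the list led by TotA. The antimicrobial peptide genes were uneven, with a median CV of 52.0% over the 8 genes measured, against 18.1% for all genes from 10 to under 100. The antifungal peptide gene Drs had 534, 1199 and 327, AttA had 323, 55.4 and 53.6, and AttB had 176, 53.0 and 78.4, so Drs was highest in replicate 2 and these attacins in replicate 1. AttC, another attacin gene, named after its values were seen, had the other order with 47.4, 69.0 and 74.8. The 8 bomanins and immune-induced molecules measured had a median CV of 76.8%. CG16712 (IM33) had 1137, 1674 and 1858, IM3 (BomS3) had 181, 260 and 24.4, and CG16836 (BomT2) had 75.8, 166 and 20.9, and 6 of the 8 were highest in replicate 2.

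Dcr-2, the dicer of the small interfering RNA pathway and the transgene of the driver stock, led the RNA interference list. It had 37282, 41265 and 25345 in replicates 1, 2 and 3, at rank 15, while AGO2, its Argonaute partner, had 958 ± 99.4 and AGO1, of the microRNA pathway, had 824 ± 98.1. Reads of the UAS-Dcr2 transgene and of the resident Dcr-2 gene cannot be told apart, so this level is not that of unmodified fat body.

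Among the lists with over 1% of the signal, nuclear ribosomal RNA and the unmatched CR-numbered names were the least even, with CVs of their shares of 71.4% and 71.6%. The labels' protocol states that ribosomal RNA was removed with RiboZero before the libraries were made. The 6 genes that the reference annotates as ribosomal RNA of the nuclear genome, or as its pseudogenes, held 1.15%, 1.91% and 4.62% of the signal in replicates 1, 2 and 3, and all 6 were highest in replicate 3. CR40677, a 2S ribosomal RNA pseudogene in the reference, had 46443, 83710 and 248320, CR41609, of the 28S type, had 13037, 21159 and 28816, and CR41548, of the 18S type, had 1870, 8281 and 20020. Without replicate 3 the share of the 6 genes was 1.53%, and with all 3 it was 2.56%.

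CR41583, at rank 3, has no match in the reference and is given no identity. It had 129480, 253660 and 734580 in replicates 1, 2 and 3, so it was the highest gene of replicate 3, with 11.3% of that library's signal, and at rank 8 in replicate 1 with 2.38%. Its ratio to CR40677 was 2.79, 3.03 and 2.96, a mean of 2.93 ± 0.12, whereas the genes themselves had CVs of 85.8% and 85.2%. The ratio of CR41583 to CR41609 was not steady, with 9.93, 12.0 and 25.5 in replicates 1, 2 and 3. CR41583 thus did not vary in step with all of the annotated ribosomal RNA genes. These differed among themselves too, as CR41548 stood at 0.0403, 0.0989 and 0.0806 of CR40677. CR40546, also without a match, had 42840, 57717 and 95501, and CR41540 had 771, 1551 and 5037. The ratio of CR40546 to CR41609 was 3.29, 2.73 and 3.31. Together with the 6 annotated genes, CR41583 and CR40546 held 4.31%, 7.11% and 17.4%, and the nuclear protein-coding genes held 89.2%, 86.8% and 77.1%. Without replicate 3 the share of the 26 unmatched CR-numbered names was 4.27%, and with all 3 it was 7.17%. The small and other noncoding RNAs, which include long ones, were also highest in replicate 3 in 108 of 163 genes. Among the 3 highest of that list the exception was the nuclear RNA 7SK, with 19194, 19453 and 19159. The RNA of RNase MRP had 5933, 7253 and 13879 and CR34335 had 6364, 8935 and 10253.

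Markers of the labelled tissue were present in every library: the 16 fat body markers, among them the storage genes, held 32.9%, 32.2% and 27.8% of the signal in replicates 1, 2 and 3, and none had a mean under 224. The tissue was dissected, sheared and spun down, per the labels' protocol, and markers of other organs were read too. In bulk RNA, fewer cells of a type and less RNA per cell cannot be told apart. Of the other tissues, muscle had the highest share, 0.688%, 0.810% and 0.769% over 18 of 20 markers, 14 of them at 1000 or more. The myosin light chain gene Mlc2 had 5627, 8473 and 8997, Act57B had 5535, 8005 and 8511, and Msp-300 had 6585, 6410 and 6521.

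Salivary gland markers held 0.442%, 0.541% and 0.216% over 11 of 14 genes, and 9 of the 11 were highest in replicate 2 and none in replicate 3. The glue protein gene Sgs7 had 7880, 11076 and 5250, Sgs8 had 3902, 5924 and 2359, and Sgs3 had 3503, 3558 and 1712. Midgut markers showed another order, with 0.0945%, 0.0605% and 0.229% over 26 of 30 genes, of which 23 were highest in replicate 3. The serine protease genes Jon65Aiv, Jon65Aiii and Jon25Bi had 1445, 790 and 5405, then 605, 374 and 2094, and last 275, 310 and 1196. The ratio of Jon65Aiv to Jon65Aiii was 2.39, 2.11 and 2.58, so Jon65Aiv and Jon65Aiii varied together. Both were lowest in replicate 2, whereas Jon25Bi was lowest in replicate 1.

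Of the remaining tissues, cuticle genes held 0.216% ± 0.017, above the midgut mean of 0.128%, most of it from Cpr49Ac with 8809 ± 1253, followed by Lcp4 with 1649 ± 773 and Lcp1 with 786 ± 219. Hemocyte markers held 0.0992% ± 0.010, with Pxn at 3092 ± 337, proPO-A1 at 666, 635 and 1441 and Hml at 823 ± 146. Pxn, Hml and proPO-A1 are also in the matrix and clotting lists above. Neuron and glia markers held 0.0419% ± 0.0066 (Syt1 at 1624 ± 174, elav at 235 ± 35.4 and futsch at 194 ± 23.9), imaginal disc markers 0.0268% ± 0.0050 (ci at 473 ± 55.7, ap at 292 ± 66.1 and sd at 231 ± 11.2) and tracheal markers 0.0145% ± 0.0021 (verm at 353 ± 10.9, pio at 248 ± 34.2 and serp at 146, 180 and 146). Malpighian tubule, oenocyte and gonad markers held under 0.01% each, with Uro at 327 ± 81.0, NaPi-T at 59.3 ± 11.2, Best2 at 56.7 ± 9.43, Cyp4g1 at 65.4, 37.2 and 87.0, bond at 23.5 ± 1.17, orb at 10.2 ± 2.02, piwi at 6.20 ± 1.75 and tj at 6.14 ± 2.68. Some of these genes are also read in fat body cells, so the shares are not cell fractions. Genes that bear on the label female had a median of 81.8, against 76.1 for all genes. Yp3, a yolk protein gene of females, had 99.3, 103 and 256. roX1, an RNA of the dosage compensation complex of males, had 97.3, 101 and 62.3, and msl-2, for a protein of that complex whose messenger RNA is translated in males, had 82.4 ± 7.28. With no labelled male library at hand, these levels were not used to check the label.

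**Figure D4:**
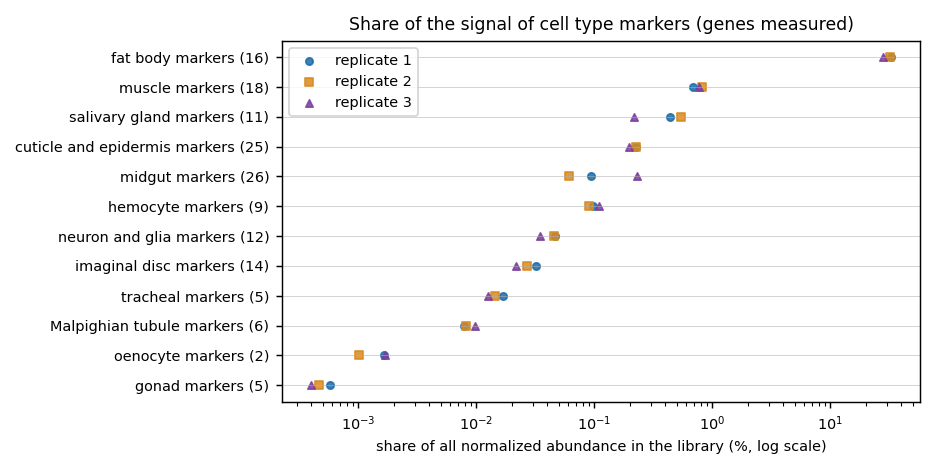
Share of all normalized abundance (%, log scale) held by marker genes of 12 tissues in each library, with the number of genes measured in parentheses and 1 symbol per library. Fat body markers lie at 27.8% to 32.9%, all other tissues under 1%, and the symbols of midgut and salivary gland are the most spread among those above 0.05%.

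The 3 libraries were similar over most genes and differed in a limited set. The median CV was 14.7% over all genes, beside a median counting error of 12.3% at the recovered depth. An SD of 3 values lies more often below the true SD than above it, so these medians understate spread beyond counting. For low genes the median CV was near the counting error: 39.7% under 10, against 44.4% from counting, and 18.1% from 10 to under 100, against 17.8%. Whether low genes varied more than counting is therefore not settled by these medians. Abundant genes varied more than counting: 10.6% from 100 to under 1000 against 7.09%, 10.5% from 1000 to under 10000 against 2.45%, and 9.56% at 10000 or more against 0.743%. Over the 8389 genes with a mean of at least 10, log2 values of replicates 1 and 2 lay within 1.5-fold for 87.9% of genes, those of replicates 1 and 3 for 84.2% and those of replicates 2 and 3 for 84.0%. The recovered reads of each pair differed by more than sampling noise, with a chi-square per degree of freedom of 11.2, 66.1 and 38.1 for the pairs 1 and 2, 1 and 3, and 2 and 3, so none is a repeat deposit of another.

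The 10 least variable genes with a mean of at least 100 were rngo, ear, CG18031 (FarO), Bj1 (Rcc1), CG10984, Cdc42, Npc1a, CG18343, Rip11 and TRAM, with CVs from 0.203% to 0.600%. rngo had 424, 423 and 423, and Cdc42, a small GTPase of cell polarity, had 425, 429 and 426. Their CVs, the lowest of the 4080 genes compared, were below the 2.62% to 10.1% that counting error gives at their depths.

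At the other end, 83 of the 4080 genes with a mean of at least 100 (2.03%) had a CV over 50%, and 68 of the 83 were highest in replicate 3, 12 in replicate 2 and 3 in replicate 1. Over all 4080 genes, 1187, 1511 and 1382 were highest in replicates 1, 2 and 3. By list, the 83 took in 12 of the 16 midgut markers with a mean of at least 100. They also took in 15 of 45 small or other noncoding RNAs, 6 of 12 unmatched CR-numbered names and 3 of 4 nuclear ribosomal RNAs with such a mean. All 12 midgut genes were highest in replicate 3. The 10 most variable were mostly genes with no role given here: CG33128 had 37.0, 33.3 and 1919 in replicates 1, 2 and 3, CG9682 had 3.58, 15.3 and 341, CG7290 had 47.7, 16.5 and 506, CG5767 had 30.1, 15.3 and 318, and CG7916 had 420, 407 and 2854. CG8664, CG14302 and CG31789 were likewise highest in replicate 3, with 652, 367 and 279 there. The other two were immune or stress genes with other libraries at the top: Victoria, of the Turandot family and now named TotE, had 75.8, 1771 and 63.6, and AttA was highest in replicate 1. The shares of midgut markers and of ribosomal RNA, given above, were both highest in replicate 3, and their part in the spread of the other genes was not tested.

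**Figure D5:**
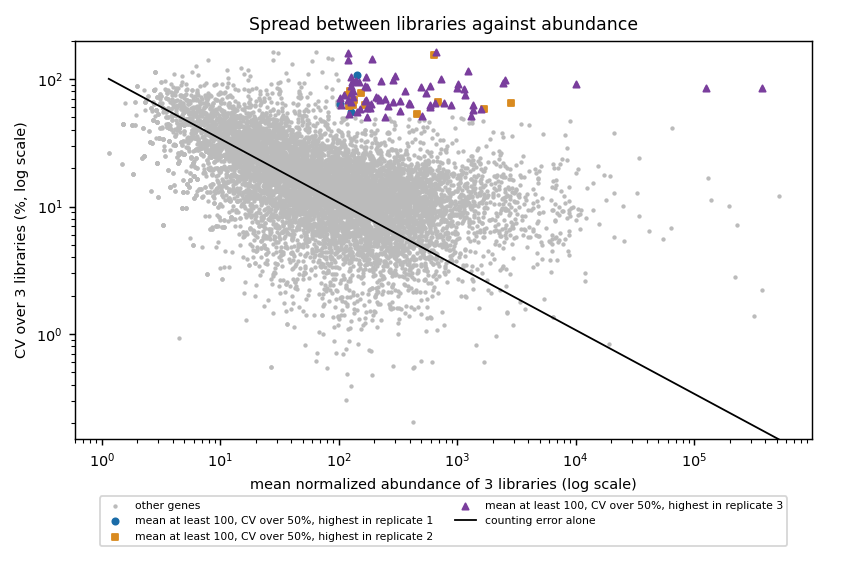
CV over the 3 libraries (%, log scale) against mean normalized abundance (log scale) for the 9367 genes, with the line for counting error alone and coloured symbols for the 83 genes with a mean of at least 100 and a CV over 50%, by the library in which they are highest. Above a mean of about 100 the grey points lie mostly over the line, and 68 of the 83 coloured points belong to replicate 3.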

How the data were processed

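Per the submitters' processing notes, edgeR, Cufflinks 1.1.0, Bowtie 0.12.7 and TopHat 1.3.2 were used with build dm3, their roles, annotation and strand setting not given in the sources used here. Values are the authors' deposited signal, a normalized abundance per gene that is not divided by length. Inverting a quantile adjustment with 1 factor per library (1.13, 0.897 and 0.675) and a shared dispersion of 0.0278 turned 100% of values of genes with a mean under 12 into numbers within 0.1 of a whole read. The factors and dispersion were chosen on those genes, so this 100% was the aim of the fit. In 753 genes with means from 12 to under 20, not used for the fit, it was 99.7%, 100% and 100% in replicates 1, 2 and 3. Before inversion, 21.6%, 18.1% and 19.8% of their values were that near a whole number. The inversion was tested on data simulated with the same adjustment, which could not show that the deposited values were made with it. The inversion gave the recovered reads, used for depth and counting error only (no duplicate removal is stated, so counting error is a lower limit).

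Of 9527 rows, 156 with names that repeat or differ only in case and 4 bare numbers were left out; they would add 0.577% to 0.679% to a library's signal. Names were matched to BDGP6 for identifiers, biotype, arm and coding length only (7024 by current symbol, 2221 by synonym, 86 ambiguous, 36 unmatched). Means, SDs, CVs and shares used Python 3.11.15 and pandas 2.3.3. With 1 group there is no comparison of conditions and no p-value. Genes named were the 30 highest, the 3 highest of each list, the 10 most and 10 least variable with a mean of at least 100, Dcr-2 and svp. The genes, the 55 lists and this rule were chosen with earlier results of these data known; list errors (FASN1, cyclophilin, geminin and others) were corrected, and the unmatched CR names were set apart, after the values were seen. No sequence is printed.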

Additional observations from a re-analysis of the deposited data

How the results depend on the processing

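No paired analysis was possible because the results come from no test and from 1 group. Replacing the deposited values by recovered reads, or keeping repeated names, moved none of the results by more than the spread between libraries. Neither setting could move much. The reads are computed from the deposited values with 1 factor per library, and repeated names add at most 0.679% to a library's signal. Divided by coding length, the storage list held 17.0%, ribosomal proteins 22.9% and odorant-binding proteins 10.7%. The top 10 genes then held 36.1%, and 38.3 genes on average held 50%. Over nuclear protein-coding genes alone (chosen after seeing the data), these were 35.1%, 9.35% and 4.79% for the lists, translation factors held 2.75%, 33 genes held 50% and the top 100 held 59.3%. Without nuclear ribosomal RNA and mitochondrial genes, ribosomal proteins held 8.40% and odorant-binding proteins 4.30%. The median CV of 14.7% became 17.2% with libraries scaled to the same total and 13.5% over genes with a mean of at least 10, and ran from 10.9% to 12.97% with 1 library left out, where fewer libraries enter the SD. Genes with a CV over 50% numbered 603, or 292 with a mean of at least 10, as low genes leave, and 530 to 688 with 1 library left out. Among smaller lists and single genes, 48 shares moved by more than their spread when divided by coding length, 48 over nuclear protein-coding genes alone, and 17 without nuclear ribosomal RNA and mitochondrial genes. Leaving out replicate 3 moved 3 lists' shares by over 1.5 times: nuclear ribosomal RNA to 1.53%, unmatched CR names to 4.27% and midgut markers to 0.0775%. Depth limits genes under 100, where the median CV was near the counting error, a comparison that understates spread beyond counting.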

Other observations

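Among the genes in none of the 41 function lists, those with the highest values after the ones already given, named here after their values were seen, included several with known roles. regucalcin, for a calcium-binding protein, had 7902, 6408 and 11175 in replicates 1, 2 and 3. Rack1, a scaffold protein of the small ribosomal subunit, had 7741 ± 721 (SD, n = 3), Dp1, an RNA-binding protein with KH domains, had 7756 ± 722, and Gel, the actin-severing protein gelsolin, had 7104 ± 373. CG6910, now named Miox, for the enzyme that opens the inositol ring, had 4002 ± 231. Oda, the antizyme that limits polyamine synthesis, had 3422 ± 61.6, fabp, a fatty acid binding protein, had 3366 ± 601, and Mct1, a monocarboxylate carrier, had 3157 ± 433. Oda was the most even of these, with 3488, 3412 and 3366.

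The 84 small nucleolar RNAs measured together held 0.152%, 0.187% and 0.327% of the signal in replicates 1, 2 and 3, in the same order of libraries as the ribosomal RNA. The 10 small nuclear RNAs together held 0.435%, 0.411% and 0.421%, most of it 7SK, and the 9 others held 0.0820%, 0.0860% and 0.125%, again highest in replicate 3. By chromosome arm, genes of 3L held 32.1% ± 0.82 of the nuclear protein-coding signal, of 2L 21.1% ± 0.05 and of 3R 17.5% ± 0.49. Those of 2R held 14.1% ± 0.25, of X 13.7% ± 0.52 and of 4 1.40% ± 0.04. The place of 3L rests largely on Lsp2, Fbp1 and Lsp1gamma, with 8.72%, 6.32% and 3.70% of the whole signal. In all, 1775 genes were measured on 3L and 2283 on 3R.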
